A study of Mus musculus with 8 samples.

Results

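The TRIM genes, apart from *Trim28* itself and its close relatives *Trim24* and *Trim33*, were followed in Th17 cells that lack *Trim28*. They were taken by symbol, as every gene whose name in the count tables is Trim followed by a digit, without *Trim24*, *Trim28* and *Trim33*, and 38 of the 13704 listed genes met this rule. RNA-seq was done on 1 library from WT C57BL/6 mice and 1 library from TRIM28fl/flxCD4cre mice of the same strain (KO), in which Cre under the Cd4 promoter removes the floxed gene in T cells from the thymus on. In both groups naive CD4+ T cells were kept for 3 days with 0.5 ng/ml TGFβ and 20 ng/ml IL-6, which turn them into Th17 cells, and were stimulated again with anti-CD3 before RNA was taken. The age of the mice and the number of mice behind each culture are not given in the sources used here.

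TRIM proteins carry a tripartite motif of a RING finger, 1 or more B-boxes and a coiled coil, and most are E3 ubiquitin ligases, enzymes that attach ubiquitin to a protein. The family is sorted by the domain behind that motif. *Trim28*, *Trim24* and *Trim33* end in a PHD finger and a bromodomain and act on chromatin, whereas the largest class ends in a PRY-SPRY domain that binds target proteins and holds many members known from antiviral defence and from signalling to NF-κB and the interferon genes.

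The authors deposited raw counts of reads per gene, 6650066 reads for WT and 6185108 for KO. With 1 library per genotype no difference has a replicate check, and every comparison below is between libraries. A level is given as reads, as CPM (reads for every 1000000 reads of the library) or, between genes, as RPKM (CPM per kilobase of the longest annotated transcript). Log2 fold changes (KO over WT) compare the scaled counts after adding 0.5, and carry exact (Clopper-Pearson) 95% intervals that cover counting error only. A gene was tested when it had at least 10 reads over both libraries, by an exact binomial test of its reads with Benjamini-Hochberg adjustment over 10881 genes, and was called at an adjusted p under 0.05 with a change of at least 2-fold. *Trim28* had 4485 reads (674 CPM) in WT and 180 reads (29.1 CPM) in KO, a log2 fold change of -4.53 with an interval from -4.76 to -4.32. The cultures held the RNA of T cells, with 5 of 6 T cell markers listed and a sum of 3633 CPM in WT and 3181 CPM in KO. The sum of 5 Th17 markers was 1139 CPM in WT and 328 CPM in KO. Reads from fewer Th17 cells and from less RNA per cell cannot be told apart in such bulk samples. Markers of other cells were low, with 83 and 44 reads (WT and KO) over 5 B cell genes, 26 and 20 reads over 6 macrophage and dendritic cell genes of which *Lyz2*, *Csf1r* and *Adgre1* were at 0, 58 and 70 reads for the natural killer gene *Klrd1* with *Ncr1* and *Klrb1c* at 0, and 53 and 29 reads for *Cd8a* and *Cd8b1*. No marker of erythroid cells (5 genes) or skeletal muscle (4 genes) was listed. Their part in the results was not tested.

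The close relatives of *Trim28* had few reads in both libraries. A low count alone does not show that a gene is silent, since the annotation used for counting is not known. *Trim24* had 17 reads in each library (log2 fold change 0.10, interval -0.95 to 1.16), and *Trim33* had 16 reads in WT and 12 in KO (-0.30, interval -1.52 to 0.86). *Trim66*, another member of the same PHD-bromodomain class, was listed in neither table. With so few reads, a difference within these intervals was not detectable at this depth.

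The 38 TRIM genes together took 9709 reads in WT and 8091 in KO, which are 0.146% and 0.131% of the library. Their summed level was 1460 CPM in WT and 1308 CPM in KO, a log2 fold change of -0.16 (interval -0.20 to -0.12). Without *Trim44* the sum changed by -0.11 (interval -0.16 to -0.07). Of the 38 genes, 32 had reads in both libraries. *Trim3*, *Trim6* and *Trim17* had reads only in WT, and *Trim2*, *Trim30d* and *Trim43b* only in KO, with 1 to 3 reads each. The RefSeq annotation holds 65 protein-coding genes under the same name rule, and 27 of them were listed in neither library, among them *Trim5*, *Trim13*, *Trim38* and the muscle genes *Trim54*, *Trim55* and *Trim63*. For a gene that was counted, a count of 0 allows up to 3 reads, which is 0.451 CPM in WT and 0.485 CPM in KO. Whether a gene listed in neither library was counted at all is not known, since genes that T cells use, such as *Trac* and *Ikbkg*, were also listed in neither.

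Most reads fell on a few members. Per transcript length *Trim8* was the highest, with 122 RPKM in WT and 110 RPKM in KO, followed in WT by *Trim35* (42.3 RPKM), *Trim27* (35.6 RPKM), *Trim41* (28.3 RPKM), *Trim59* (23.7 RPKM), *Trim25* (22.2 RPKM) and *Trim44* (21.5 RPKM). In KO the order after *Trim8* was *Trim27* (33.9 RPKM), *Trim59* (32.6 RPKM), *Trim35* (31.3 RPKM) and *Trim41* (30.5 RPKM), followed by *Trim25* (18.4 RPKM), *Trim11* (16.9 RPKM) and *Trim44* (12.3 RPKM). The 4 members with most reads held 59.6% of the members' reads in WT and 58.1% in KO. At the other end, the 4 members with NHL repeats, the class of the muscle gene *Trim32* and the stem cell gene *Trim71*, had 15 reads in WT and 12 in KO between them.

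**Figure D1:**
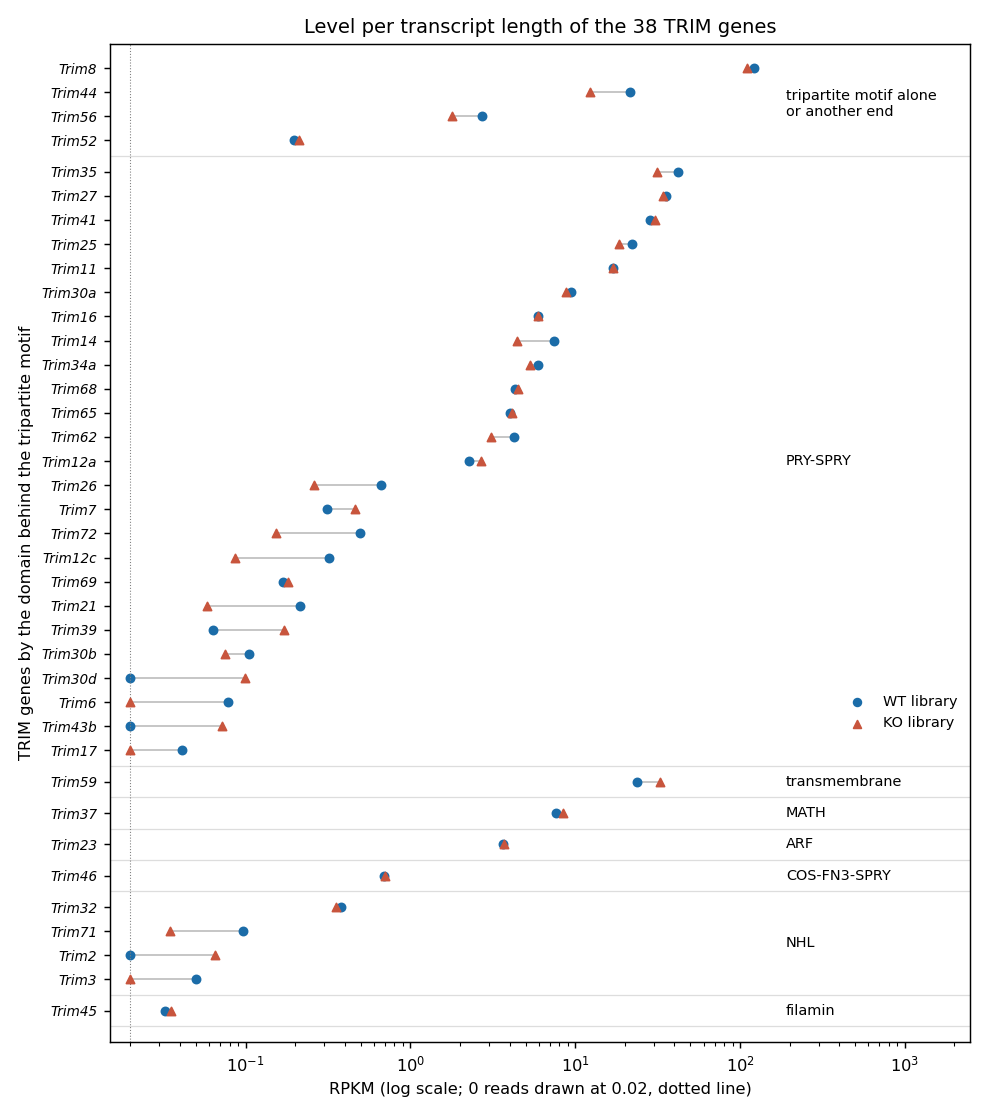
Level of each of the 38 TRIM genes in RPKM (log axis) in the WT library (circles) and the KO library (triangles), grouped by the domain behind the tripartite motif, 1 library per genotype. *Trim8* stands highest at 122 and 110 RPKM, and the PRY-SPRY class reaches from 42.3 RPKM in WT for *Trim35* down to genes with single reads.

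No TRIM gene of the name rule was called. Of the 24 members with enough reads to test, 0 were called lower and 0 higher, where 5.53% of all tested genes were called lower and 2.57% higher. Shares this small would give few calls among 24 genes. With a limit of 1.5-fold, 3 members (12.5%) were lower, *Trim44*, *Trim14* and *Trim56*, against 11.5% of all tested genes, and 0 were higher against 7.02%. With no limit on the size, 6 members (25.0%) were past the adjusted p in the lower direction against 22.4% of all tested genes, and 1 member (4.17%) was past it in the higher direction against 21.4%. The shares of lower members were near those of all genes. The 7 genes past the adjusted p were *Trim8*, *Trim14*, *Trim25*, *Trim35*, *Trim44*, *Trim56* and *Trim59*. The read test takes counting error as the only error. With edgeR's exact test and an assumed variation between cultures of 10% (coefficient of variation 0.1), *Trim44* was the 1 member past an adjusted p of 0.05, and with 0.2 there were 0.

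The median log2 fold change over the 24 tested members was -0.07, with 14 below 0 and 10 above, and it was -0.02 over all tested genes. The members ranged from -1.66 to 0.54, and both ends belonged to genes with few reads, *Trim12c* with 10 over both libraries and *Trim7* with 19. For 18 of the 24 the whole interval lay within a 2-fold change in either direction. Over all tested genes the log2 fold change was lower for longer transcripts (Spearman's rho -0.37 across 10792 genes, which share the same 2 libraries), and the longest transcript had a median length of 3746 bases among tested members and 3318 among all tested genes. After a loess correction for transcript length the members' median was -0.02, against 0.00 for all genes. With that correction 4 members were past the adjusted p in the lower direction (*Trim8*, *Trim14*, *Trim35* and *Trim44*) and 2 in the higher direction (*Trim37* and *Trim59*), against 17.4% and 20.8% of all genes with a length.

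**Figure D2:**
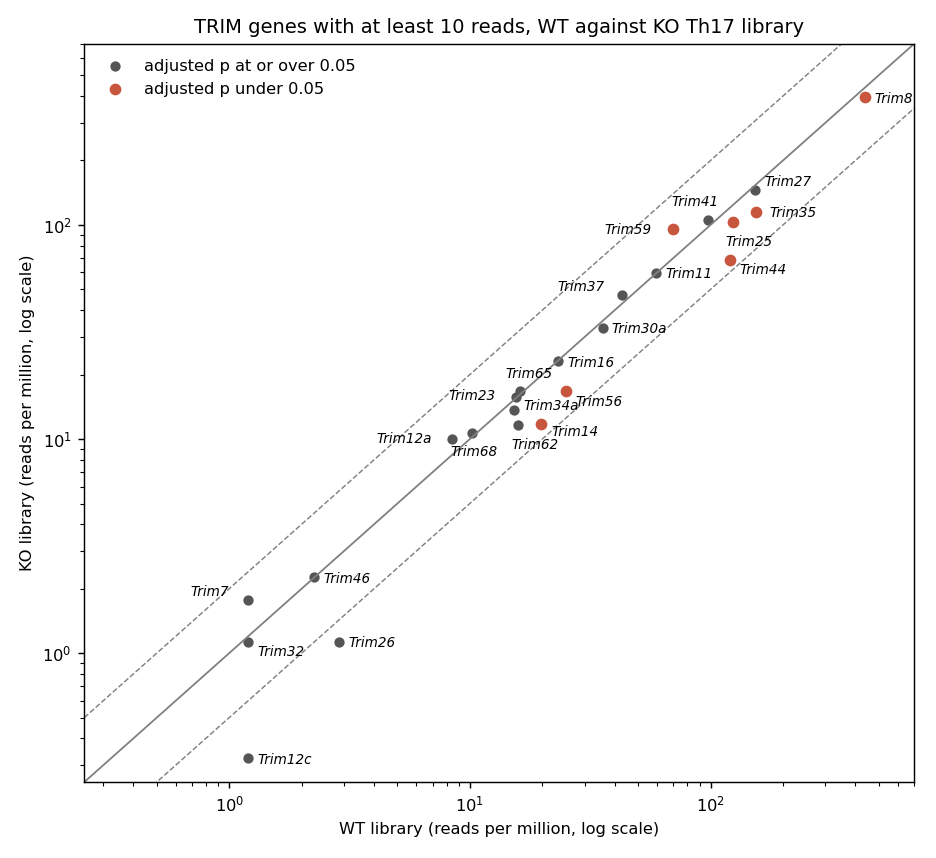
Level of the 24 TRIM genes with at least 10 reads in the WT library (x axis) and the KO library (y axis), in CPM on log axes. The solid line marks equal levels and the dashed lines 2-fold, and the 7 genes past an adjusted p of 0.05 are coloured, with *Trim44* farthest below the line among the abundant genes and *Trim59* above it.

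*Trim8*, *Trim44*, *Trim56* and *Trim52* were listed in the class with the tripartite motif alone or with an end of another kind. Not all of them carry the whole motif. The 3 of them that could be tested were all past the adjusted p in the lower direction, where 22.4% of all tested genes were. After the length correction 2 of the 3 were, against 17.4% of all genes with a length. The median log2 fold change of the 3 was -0.59, and -0.13 with that correction. *Trim44* lacks the RING finger and has a zinc finger like those of deubiquitinating enzymes in its place. It lies on chromosome 2 of GRCm38.p6 from 102300119 to 102400900 on the minus strand, with 5 exons. *Trim44* had 804 reads (121 CPM) in WT and 426 reads (68.9 CPM) in KO. The KO library held the lower level, with a log2 fold change of -0.81 (interval -0.98 to -0.64), or 1.75-fold lower, and -0.54 after the length correction.

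*Trim8*, a ligase known from cytokine signalling through its binding of the inhibitor SOCS1, lies on chromosome 19 from 46501648 to 46516805 with 6 exons. *Trim8* had 2910 reads (438 CPM) in WT and 2435 reads (394 CPM) in KO. Its many reads put a small difference of -0.15 (interval -0.23 to -0.07) past the adjusted p. *Trim56*, an antiviral ligase that acts on the DNA-sensing pathway of cGAS and STING, lies on chromosome 5 from 137111286 to 137116462 and has a longest transcript of 9279 bases. *Trim56* had 167 reads (25.1 CPM) in WT and 103 reads (16.7 CPM) in KO, a log2 fold change of -0.59 (interval -0.96 to -0.23). After the length correction the value was -0.13 and *Trim56* was no longer past the adjusted p. *Trim52* had 4 reads in each library and was not tested.

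The PRY-SPRY class held 25 of the 38 members, with 743 CPM in WT and 665 CPM in KO. Of its 16 tested genes, 3 were past the adjusted p in the lower direction (*Trim14*, *Trim25* and *Trim35*), 0 in the higher direction and 13 did not pass, beside 22.4% lower and 21.4% higher among all tested genes. After the length correction 2 were past it lower and 0 higher, against 17.4% and 20.8% of all genes with a length. The median over the 16 was -0.09, and -0.02 after the length correction.

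*Trim35*, a ligase first described for its effect on cell growth and known to bind the glycolytic enzyme PKM2, had 1034 reads (155 CPM) in WT and 711 reads (115 CPM) in KO. Its log2 fold change was -0.44 (interval -0.58 to -0.30), or 1.35-fold lower in KO, and -0.39 after the length correction. It lies on chromosome 14 from 66297025 to 66311424 with 6 exons. *Trim27*, a ligase known as a transcriptional corepressor, had nearly as many reads, 1020 (153 CPM) in WT and 904 (146 CPM) in KO. Its log2 fold change of -0.07 (interval -0.20 to 0.06) did not pass the test and was 0.05 after the length correction. *Trim41* had 647 reads in WT and 648 in KO (0.11, interval -0.05 to 0.27), and *Trim11*, a ligase linked to the clearing of misfolded proteins, 396 reads in WT and 369 in KO (0.00, interval -0.21 to 0.21). The intervals of *Trim27*, *Trim41* and *Trim11* all lie well within 1.5-fold.

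*Trim14* also lacks a RING finger and acts as an adaptor at mitochondria in signalling from the RNA sensor RIG-I. *Trim14* had 131 reads (19.7 CPM) in WT and 73 reads (11.8 CPM) in KO. The log2 fold change was -0.73 (interval -1.17 to -0.32), or 1.66-fold lower in KO, and -0.82 after the length correction. *Trim14* lies on chromosome 4 from 46505072 to 46536150 on the minus strand. Of its exonic bases, 38.0% overlap exons on the other strand, mostly of *Nans*, an enzyme of sialic acid synthesis. Of the 50-base windows of its longest transcript, 57.8% also occur, on either strand, in another gene's transcripts, mainly those of *Nans* (50.2%). *Nans* had 1001 reads in WT and 1316 in KO, a log2 fold change of 0.50 (interval 0.38 to 0.62), the opposite direction. The sources used here do not say whether reads were counted by strand, so the reads of the shared bases cannot be given to one gene or the other with certainty.

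Among the less abundant PRY-SPRY members, *Trim62*, a ligase that acts on the signalling adaptor CARD9, had 106 reads in WT and 72 in KO (-0.45, interval -0.91 to -0.01). It did not pass the adjusted p. *Trim16*, a member without a RING finger that is known from the autophagy of damaged lysosomes, had 155 reads in WT and 143 in KO (-0.01, interval -0.35 to 0.33). *Trim65*, which acts on the RNA sensor MDA5, had 108 reads in WT and 104 in KO (0.05, interval -0.35 to 0.45). *Trim68* had 68 and 66 reads in WT and KO, and *Trim7* had 8 and 11. *Trim26* had 19 reads in WT and 7 in KO and did not pass the adjusted p. The log2 fold change of *Trim26* was -1.27 (interval -2.83 to -0.02), given here although the gene was picked after its values were seen.

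Each of the remaining classes had at most 1 tested member. *Trim59*, a ligase anchored in the membrane of the endoplasmic reticulum, was the 1 member past the adjusted p in the higher direction. It lies on chromosome 3 from 69035292 to 69044742 on the minus strand, with 3 exons. *Trim59* had 463 reads (69.6 CPM) in WT and 592 reads (95.7 CPM) in KO. The KO library held 1.37 times the WT level, a log2 fold change of 0.46 (interval 0.28 to 0.64), and 0.42 after the length correction. *Trim37*, a ligase of peroxisomes and centrosomes with a MATH domain, had 285 reads in WT and 292 in KO. Its log2 fold change of 0.14 (interval -0.10 to 0.38) did not pass the test, and after the length correction, for a transcript of 5632 bases, it was 0.41 and did. *Trim23*, which carries a GTPase domain of the ARF kind, had 103 reads in WT and 98 in KO (0.03, interval -0.38 to 0.45). *Trim46*, known from the microtubules of the axon, had 15 reads in WT and 14 in KO (0.01, interval -1.16 to 1.16), and *Trim32* 8 reads in WT and 7 in KO (-0.08, interval -1.78 to 1.57). Intervals this wide leave room for a change of 2-fold in either direction.

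**Figure D3:**
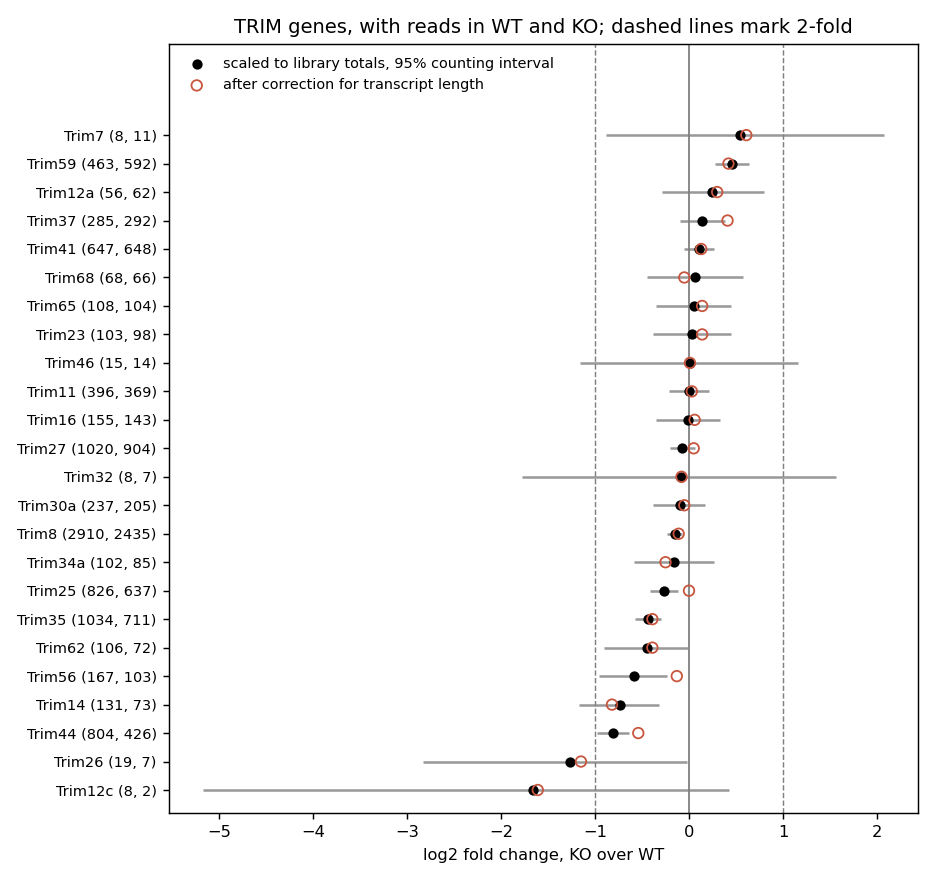
Log2 fold change (KO over WT) of the 24 tested TRIM genes, ordered by value, with reads in WT and KO beside each name. Filled points are scaled to library totals with 95% counting intervals, and open points are after correction for transcript length. Most intervals lie between the dashed 2-fold lines, and *Trim25*, *Trim37*, *Trim44* and *Trim56*, with transcripts of 5590 bases or more, move right under the correction.

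The other 14 members had fewer than 10 reads over both libraries and were not tested. *Trim72*, a membrane-repair gene of muscle, had 7 reads in WT and 2 in KO, and *Trim71* had 6 and 2. *Trim21*, the cytosolic receptor for antibodies, had 4 reads in WT and 1 in KO, *Trim39* had 2 and 5, and *Trim30b* 3 and 2. *Trim69* had 2 reads in each library and *Trim45*, the filamin-domain member, 1 in each. These counts lie near the limit of 3 reads, and no direction can be read from them.

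A run of related PRY-SPRY genes lies together on chromosome 7, beside the restriction factor gene *Trim5*, and 7 members belong to it. The 7 had 408 reads (61.4 CPM) in WT and 358 reads (57.9 CPM) in KO, and of the 4 tested, 0 passed the adjusted p in either direction. *Trim30a*, an inhibitor of NF-κB signalling that promotes the loss of TAB2 and TAB3, had 237 reads (35.6 CPM) in WT and 205 reads (33.1 CPM) in KO. Its log2 fold change was -0.10 (interval -0.38 to 0.17). *Trim34a* had 102 reads in WT and 85 in KO (-0.16, interval -0.59 to 0.27). *Trim12a* had 56 and 62 reads, *Trim12c* 8 and 2, and *Trim30d* 0 and 2. These genes resemble each other. Of the 50-base windows of its transcripts, *Trim34a* shared 61.9% with another gene, mainly *Trim34b* (41.3%), which was listed in neither library, and *Trim12c* shared 33.4%, mainly with *Trim5* (24.5%). Only uniquely assigned reads were deposited, so by this wording reads that fit several genes were left out. How uniqueness was judged is not stated, and the levels of these genes are uncertain and may be too low. *Trim30a* shared 6.53% of its windows, and 16 of the 38 members shared none, *Trim8*, *Trim11*, *Trim37* and *Trim41* among them.

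Several of these genes are known to be induced by interferon, and the promoters were read for the interferon-stimulated response element, taken as GAAANNGAAA on either strand in the window from 250 bases before to 50 bases after the transcript start in RefSeq on GRCm38.p6. Of the 38 members, 29 had a promoter entry, and 8 of these (27.6%) held the motif, against 3.99% of all 27025 genes with an entry. The 8 were *Trim2*, *Trim12a*, *Trim12c*, *Trim21*, *Trim26*, *Trim30a*, *Trim30d* and *Trim34a*. They are related by descent in part, so they are not independent of each other. The stretches with the motif of the 6 genes on chromosome 7 and of *Trim26* are printed, and none of *Trim2*. They show how alike *Trim12a* is to *Trim12c*, and *Trim30a* to *Trim30d*, at the element. *Trim21* and *Trim26* lie outside the run on chromosome 7. Each is given 5′ to 3′ on the gene's own strand with the motif in capitals, and a motif on the opposite strand reads as its reverse complement.
Trim12a, chr7:104315466-104315500, minus strand: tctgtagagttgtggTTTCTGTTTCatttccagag
Trim12c, chr7:104353354-104353393, minus strand: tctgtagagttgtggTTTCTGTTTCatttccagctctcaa
Trim30a, upstream start, chr7:104465205-104465244, minus strand: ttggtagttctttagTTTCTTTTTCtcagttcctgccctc
Trim30a, downstream start, chr7:104446099-104446138, minus strand: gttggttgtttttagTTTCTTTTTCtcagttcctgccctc
Trim30d, chr7:104507866-104507905, minus strand: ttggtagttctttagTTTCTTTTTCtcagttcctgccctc
Trim34a, chr7:104244452-104244486, plus strand: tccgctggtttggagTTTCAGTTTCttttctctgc
Trim21, chr7:102565453-102565484, minus strand: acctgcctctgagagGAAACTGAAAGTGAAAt
Trim26, chr17:36836971-36837016, plus strand: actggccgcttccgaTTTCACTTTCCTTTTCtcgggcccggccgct

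The stretches of *Trim12a* and *Trim12c* were identical at 33 of 35 aligned bases, and those of *Trim30d* and the upstream start of *Trim30a* at 40 of 40, whereas both starts of *Trim30a* shared 33 of 40. In *Trim21* and *Trim26* a pair of sites overlap and are written as 1 run of capitals. A match is a description of the letters and says nothing of binding. Among the genes with the element, levels ran from 237 reads in WT for *Trim30a* to 0 for *Trim30d* and *Trim2*, and of the 5 motif genes with enough reads to test, 0 passed the adjusted p. As further descriptions, TTCNNNGAA, the core of STAT binding sites, was held by 2 members with an entry (6.90%, *Trim45* and *Trim46*) against 9.55% of all genes. AGGTCA, the core sequence read by RORγt and other nuclear receptors, was held by 8 (27.6%) against 18.1%.

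More of the interferon-induced genes were called higher in KO than lower, though the calls were few. Of 33 genes, 32 were listed and 21 could be tested. There were 1 call lower and 3 calls higher, and with no size limit 2 genes lower and 7 genes higher were past the adjusted p. Over all tested genes 5.53% were called lower and 2.57% higher, and 22.4% and 21.4% were past the adjusted p at any size. The median over the 21 was 0.24 on the log2 scale, with 7 below 0 and 14 above, and 0.17 after the length correction. All genes had medians of -0.02, and 0.00 after that correction. *Usp18*, which takes ISG15 off proteins and damps interferon signalling, had 8 reads in WT and 111 in KO (3.82, interval 2.87 to 5.15). *Cmpk2* had 2 and 12 reads (2.43, interval 0.52 to 5.89) and *Ifit1* had 4 and 16 (1.98, interval 0.47 to 4.14). The RNA-editing gene *Adar* had 26 and 10 reads (-1.23, interval -2.49 to -0.17). After the length correction *Adar* stood at -0.94, just under the 2-fold limit, and the calls of *Usp18*, *Cmpk2* and *Ifit1* were kept.

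*Trim25* joins ubiquitin to RIG-I and is also a ligase for ISG15, a ubiquitin-like protein made in response to interferon. *Trim25* lies on chromosome 11 from 88999403 to 89020294, with up to 9 exons and a longest transcript of 5590 bases. *Trim25* had 826 reads (124 CPM) in WT and 637 reads (103 CPM) in KO. The log2 fold change was -0.27 (interval -0.42 to -0.12), past the adjusted p, and was 0.00 after the length correction, no longer past it. The enzymes of the ISG15 pathway went in different directions. *Uba7*, which activates ISG15, had 391 reads in WT and 250 in KO. *Ube2l6*, which passes ISG15 on to the ligase, had 38 reads in WT and 152 in KO (2.09, interval 1.58 to 2.66), and was called higher with and without the length correction. *Isg15* itself had 7 reads in WT and 16 in KO and was not called, and *Ddx58*, the gene of RIG-I, had 207 and 186.

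**Figure D4:**
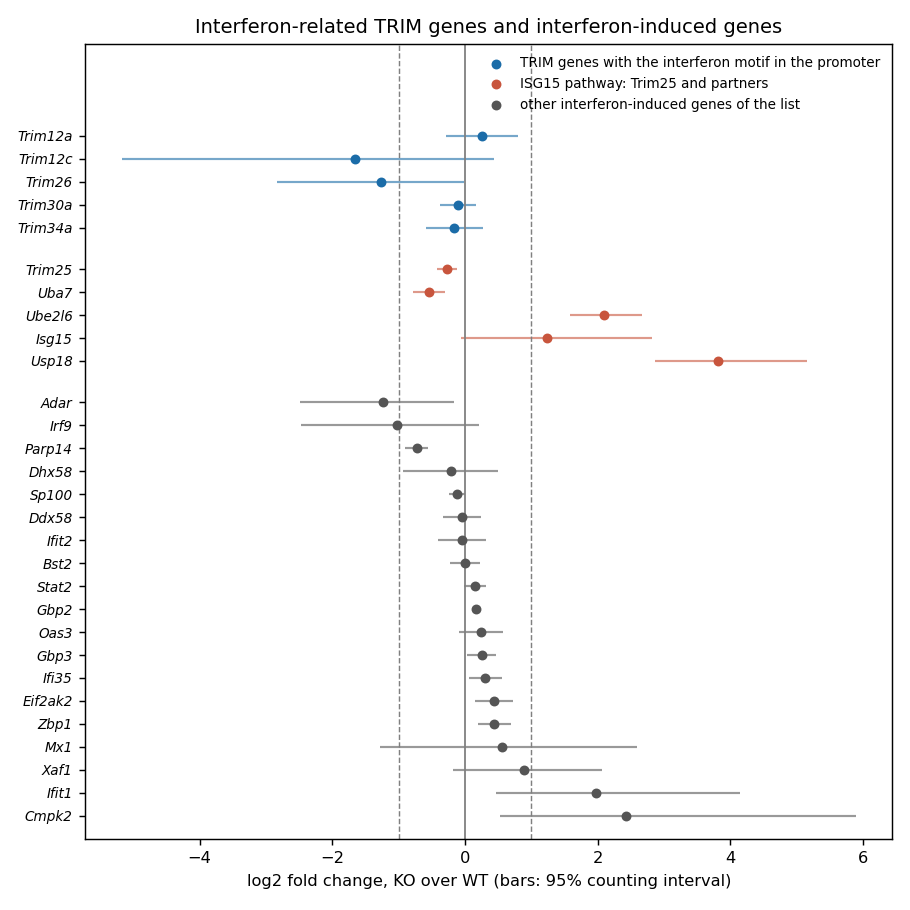
Log2 fold change (KO over WT) with 95% counting intervals of the tested TRIM genes with the interferon motif, of *Trim25* and its ISG15 partners, and of the other tested interferon-induced genes. The TRIM genes with most reads, *Trim25* (-0.27, interval below 0) and *Trim30a* (-0.10, interval across 0), lie between the dashed 2-fold lines. *Usp18* (3.82) and *Ube2l6* (2.09) lie beyond the dashed line for a 2-fold rise.

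Of 29 genes whose products work with TRIM proteins in antiviral and NF-κB signalling, 28 were listed and 26 tested. There were 1 call lower and 1 higher (*Ube2l6*), where 5.53% of all tested genes were called lower and 2.57% higher. At any size 7 genes of the list were past the adjusted p lower and 5 higher, and the median was 0.02. The shares past the adjusted p were near those of all tested genes, 22.4% lower and 21.4% higher. The gene called lower was *Tab3*, which encodes a TAK1-binding protein and had 160 reads in WT and 73 in KO (-1.02), and was no longer called after the length correction, at -0.70. Of the 4 TRIM proteins that carry other symbols, *Pml*, the organizer of PML nuclear bodies, had 146 reads in WT and 62 in KO. It was called lower at -1.12 on the log2 scale (interval -1.58 to -0.69), and the call was lost after the length correction at -0.98. *Mid1* had 3 and 2 reads, *Mid2* had 8 in each library, and *Mefv* was listed in neither.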

How the data were processed

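RNA-seq was done on 2 libraries, 1 WT and 1 KO. The authors mapped the reads to mm10 with SOAP2 and deposited, for each gene, the raw count of its uniquely assigned reads, not normalized. The submitters' processing notes also name HTSeq. Strandedness and the annotation are not given in the sources used here. Genes without reads are not listed, and a gene listed for 1 library was given 0 reads in the other. The ChIP-seq samples were not analysed here.

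From these counts, CPM, RPKM (longest GENCODE M21 transcript), log2 fold changes (0.5 added) and exact 95% intervals were computed with SciPy 1.17.1. A two-sided exact binomial test with Benjamini-Hochberg adjustment was run over 10881 genes, those whose reads summed to at least 10. It compares libraries rather than genotypes. The quasi-likelihood test of edgeR could not be fitted, since 1 library per genotype leaves no residual degrees of freedom. Symbols of the RefSeq table matched 13050 names, older symbols 602, and 52 names had no match. Positions and promoters came from RefSeq on GRCm38.p6. The length correction was a loess curve (span 0.3, statsmodels 0.14.6). Shared transcript windows were 50 bases long. The calculations were tested on simulated data.

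Fold changes are given for members called, members with at least 100 reads in their higher library, the highest member of each domain class and called genes of the other lists. The members and lists were chosen with earlier results of these data known, and the lists come from general knowledge. Of the interferon-induced list, 1 gene is not reported here and is left out of that list's counts and median. Alternatives were TMM and assumed variation in edgeR 4.0.16, DESeq2 1.42.0 size factors, upper-quartile scaling, 5 added to each count, other filters, corrections for transcript length or GC content, and a limit of 1.5-fold. Results with no limit on the size, the summed reads without 1 member and the assumed variation of 0.1 were added after seeing the data. R 4.3.3 and Python 3.11.15 were used.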

Additional observations from a re-analysis of the deposited data

How the results depend on the processing

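No paired analysis was possible because there is 1 library per genotype, and for the same reason no library could be left out. The count of members called lower was 0, and became 3 with a limit of 1.5-fold and 6 with no limit on the size, while the count called higher went from 0 to 1 with no limit on the size. Of the members past the adjusted p at any size, 6 lower and 1 higher, edgeR's exact test left 1 lower and 0 higher at an assumed variation of 0.1, and 0 and 0 at 0.2 and 0.4. The length correction gave 4 lower in place of 6 and 2 higher in place of 1. Correction for GC content gave 7 lower and 1 higher. The cause was not tested beyond what these settings change by construction. The signs that turned belonged to genes whose value lay near 0. *Trim16* went from -0.01 to 0.01 with TMM and with DESeq2's size factors, 0.06 after correction for length and 0.04 after correction for GC content. *Trim27* went from -0.07 to 0.05 after correction for length. After correction for GC content *Trim30a* went from -0.10 to 0.04, *Trim11* from 0.00 to -0.07 and *Trim46* from 0.01 to -0.07. These are the 8 sign changes among 246 values for the 19 named members that were tested. Many of the settings leave a fold change as it was by construction, and no member was called, so no call could be lost. The depth limits the 14 untested members, for which 3 reads are 0.451 CPM in WT and 0.485 CPM in KO.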
